A study of Mus musculus with 6 samples.

Results

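The C/EBP transcription factors were followed through the adipocyte RNA of mice with and without a deletion of PU.1 in their adipocytes. The 5 members were Cebpa, Cebpb, Cebpd, Cebpg and Cebpe, found by matching the Ensembl mouse gene identifiers of the deposited table to these symbols, and they were 5 of 35122 genes in all. The control group was 3 male C57BL/6 mice of genotype PU.1 fl/fl. The knockout group, aPU.1KO, was 3 male C57BL/6 mice of genotype AdipoqCre_PU.1 fl/fl. Both groups therefore carried the loxP-flanked allele of Spi1, the gene of PU.1, both ate standard chow, and the sample labels give both an age of 10 to 11 months, although the text of the paper calls the sequenced mice older. Cre was driven by the adiponectin promoter, which is active in adipocytes. RNA came from the floating adipocyte layer of collagenase-digested epididymal fat, sequenced as 1 library for each animal, and numbers 1 to 3 only name the mice within a group.

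C/EBP proteins are basic leucine zipper factors that bind DNA as dimers with each other and with related factors. In the textbook account of fat cell formation, C/EBPβ and C/EBPδ are switched on early by hormonal signals and then activate Cebpa and Pparg, whose products hold each other's genes active in the mature adipocyte. C/EBPγ is a short family member that lacks a strong activation domain and pairs with the others and with ATF4, and C/EBPε is best known from maturing granulocytes. In myeloid cells PU.1 and C/EBPα are partner factors, and C/EBPβ is a factor of inflammatory gene expression in macrophages.

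The promoters of the members are shown because the deleted gene encodes a DNA-binding factor. RefSeq start sites were found for 3 of the 5 members (Cebpa, Cebpb and Cebpg), and the 250 bases before each start are given 5′ to 3′ on the strand of the gene (build GRCm38.p6). They are chr7:35119043-35119292 on the plus strand for Cebpa, chr2:167688665-167688914 on the plus strand for Cebpb and chr7:35056567-35056816 on the minus strand for Cebpg. Capitals mark every match, on either strand, to 6 motifs searched by their letters, the C/EBP half-site TTGCG, the C/EBP dimer core TTGCNNAA, the PU.1 core GAGGAA, the cyclic AMP response half-site TGACG, the CCAAT box CCAAT and the TATA box TATAAA, of which the first and the second overlap in their opening letters.
Cebpa: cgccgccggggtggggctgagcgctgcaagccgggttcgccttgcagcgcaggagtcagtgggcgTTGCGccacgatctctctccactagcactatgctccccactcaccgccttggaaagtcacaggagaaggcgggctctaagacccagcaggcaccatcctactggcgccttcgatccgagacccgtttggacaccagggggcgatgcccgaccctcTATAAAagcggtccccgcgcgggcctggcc
Cebpb: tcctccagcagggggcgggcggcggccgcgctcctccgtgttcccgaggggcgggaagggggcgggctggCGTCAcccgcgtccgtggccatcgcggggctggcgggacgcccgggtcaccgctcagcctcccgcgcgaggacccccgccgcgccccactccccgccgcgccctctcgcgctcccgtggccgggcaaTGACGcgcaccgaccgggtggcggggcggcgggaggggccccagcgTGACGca
Cebpg: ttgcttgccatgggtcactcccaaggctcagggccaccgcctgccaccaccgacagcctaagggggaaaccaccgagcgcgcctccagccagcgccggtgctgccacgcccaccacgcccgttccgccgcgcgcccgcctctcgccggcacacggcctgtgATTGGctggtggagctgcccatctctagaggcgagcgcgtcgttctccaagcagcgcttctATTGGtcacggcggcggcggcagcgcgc

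The window of Cebpa held 1 C/EBP half-site, from 185 to 181 bases before the start, and 1 TATA box, from 30 to 25 bases before it. That of Cebpb held 3 cyclic AMP response half-sites, and that of Cebpg held 2 CCAAT boxes, both on the opposite strand. Neither the dimer core nor the PU.1 core was matched in any of the 3 windows. Of 32851 RefSeq promoter windows of the same length, 14.5% held the C/EBP half-site, 9.56% the dimer core, 23.3% the PU.1 core, 17.8% the cyclic AMP response half-site, 33.8% the CCAAT box and 12.4% the TATA box. A match of letters describes the sequence and is not a measured binding site.

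Libraries held between 20550252 and 69283842 counts, and control mouse 1 was the deepest by far. Values below are CPM, the count of a gene relative to the total of its library, scaled by the TMM method of edgeR. Spi1 was at 6.35 to 26.7 CPM in control and 1.22 to 4.17 CPM in aPU.1KO mice, with control mouse 2 the lowest of its group. The groups did not overlap, beside 15.5% of all genes tested that were apart and lower in aPU.1KO mice. The log2 fold change of aPU.1KO over control was -2.75 ± 0.64 (SE, edgeR adjusted p = 0.0788, DESeq2 adjusted p = 7.65e-05). With the mean log2 CPM of the macrophage markers added to the model it was 0.04 ± 0.52 (SE). The table counts whole genes, so that reads from the exons of Spi1 that Cre leaves in place are included. The 10 adipocyte marker genes, such as Adipoq, all had counts and summed to 19530 to 21457 CPM in control and 21553 to 23383 CPM in aPU.1KO mice. The 14 macrophage markers summed to 1641, 482 and 1583 CPM in control mice 1 to 3 and to 330.2, 233 and 316 CPM in aPU.1KO mice 1 to 3, and none was at 0 in any library. Macrophages also express Cebpa and Cebpb, and in such a mixture fewer cells of a type and less RNA per cell cannot be told apart.

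Cebpa was by far the most abundant member, and its level in all 3 aPU.1KO mice lay above that of all 3 control mice. It lies on chromosome 7 (35119293 to 35121928, plus strand, GRCm38), and encodes C/EBPα, the factor that sustains the mature adipocyte program. Its level was 657, 700.3 and 691 CPM in control mice 1, 2 and 3, and 852, 922 and 855 CPM in aPU.1KO mice 1, 2 and 3. The groups were apart by more than their own width, with means of 683 ± 22.8 CPM (SD, n = 3) and 876 ± 39.9 CPM (SD, n = 3). The log2 fold change of aPU.1KO over control (LFC) was 0.36 ± 0.09 (SE), with a 95% interval of 0.15 to 0.57. The quasi-likelihood test of edgeR, adjusted over 13925 genes by the Benjamini-Hochberg method, gave an adjusted p = 0.0868. The difference therefore did not pass an adjusted p of 0.05 with edgeR. It passed with DESeq2, the tool named in the study's methods, at an adjusted p of 0.000754.

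By unadjusted p, Cebpa stood at place 866 of the 13925 genes tested, and 31.7% of them had a larger log2 fold change in size. With the mean log2 CPM of the macrophage markers added to the model, Cebpa had an LFC of 0.25 ± 0.19 (SE) and an edgeR adjusted p = 0.999. Relative to the control mean, that score was -0.98 to 0.61 in control mice and -2.12 to -1.58 in aPU.1KO mice. Since the groups did not overlap in it, the model could hardly separate the score from the group. The SE was 0.09 without the score, and 0 of 13925 genes passed an adjusted p under 0.05 with it. The adjusted p of 0.999 therefore does not decide whether Cebpa differed apart from the macrophage markers. With each mouse left out in turn, and no score, the LFC of Cebpa stayed between 0.32 and 0.38. In these fits edgeR's adjusted p ran from 0.0878 without control mouse 2 to 0.399 without control mouse 1. The part of the macrophage markers in the value of Cebpa was not tested.

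**Figure D1:**
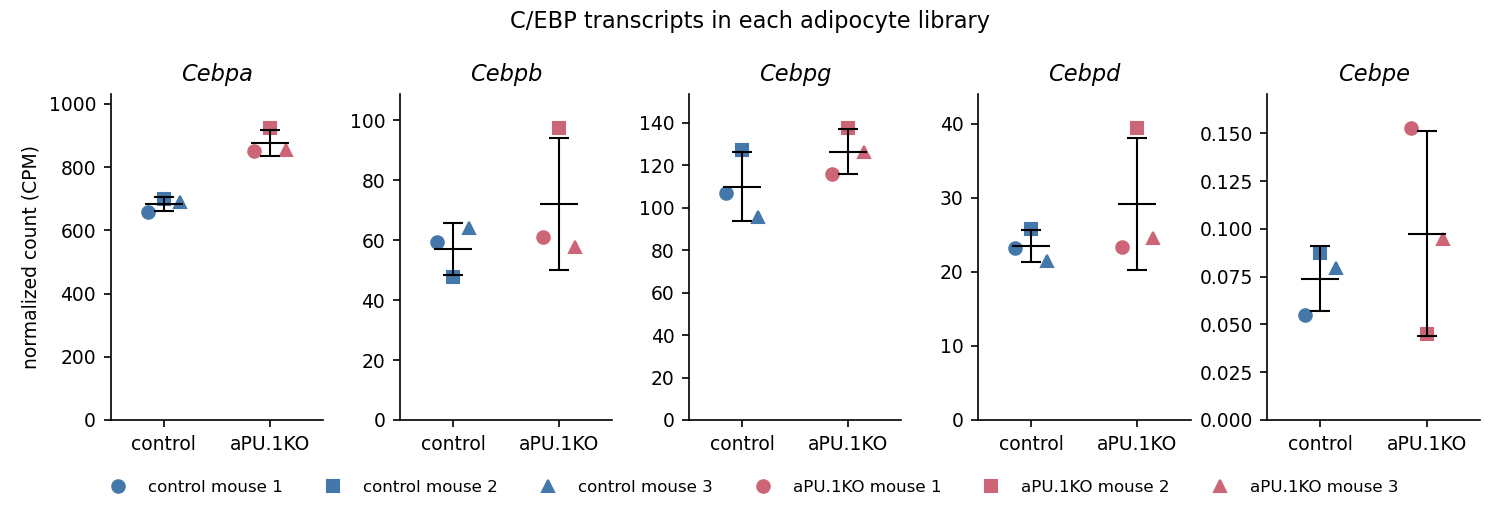
Normalized counts (CPM, linear axis from 0, a scale of its own for each gene) of the 5 members in each of the 3 control and 3 aPU.1KO libraries. Points are mice, and the horizontal bar with whiskers is the mean ± SD of 3 mice. The groups are apart for Cebpa, overlap for the others, and aPU.1KO mouse 2 is the highest library for Cebpa, Cebpb, Cebpd and Cebpg.

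The early factors Cebpb and Cebpd did not separate the groups, and their higher means in aPU.1KO adipocytes rested on 1 mouse. Cebpb (chromosome 2, 167688915 to 167690418, plus strand, 1 exon) encodes C/EBPβ, which opens the adipogenic cascade and also serves inflammatory genes. It was at 59.5, 47.5 and 64.1 CPM in control mice 1, 2 and 3, and at 61.2, 97.2 and 57.6 CPM in aPU.1KO mice 1, 2 and 3. Thus 2 of the knockout libraries fell within the control range and aPU.1KO mouse 2 stood above all others. The LFC was 0.34 ± 0.22 (SE, 95% interval -0.19 to 0.86, edgeR adjusted p = 0.376), and without aPU.1KO mouse 2 it was 0.05 (edgeR adjusted p = 0.844).

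Cebpd (chromosome 16, 15887286 to 15891031, plus strand) encodes C/EBPδ, which answers hormonal and inflammatory signals together with C/EBPβ. Its level was 23.2, 25.8 and 21.4 CPM in control mice 1, 2 and 3 and 23.4, 39.3 and 24.6 CPM in aPU.1KO mice 1, 2 and 3. The same library, aPU.1KO mouse 2, was again the highest and the other knockout libraries lay among the controls. The LFC of 0.31 (standard error 0.21, 95% interval -0.18 to 0.81, edgeR adjusted p = 0.386) became 0.03 without that mouse (edgeR adjusted p = 0.881). By DESeq2 the adjusted p was 0.438 for Cebpb and 0.473 for Cebpd. With the macrophage score as covariate the LFC was 0.45 ± 0.50 (SE) for Cebpb and -0.17 ± 0.39 (SE) for Cebpd.

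Exons of both early factors overlap genes on the other strand, those of Cebpb over 312 bp with Tmem189 and those of Cebpd over 562 bp with Spidr. The sources used here do not state whether strand was used in counting, so that reads in those stretches may not be told apart. The groups overlapped for both partner genes, with LFCs of 0.03 ± 0.10 (SE) for Tmem189 and 0.09 ± 0.17 (SE) for Spidr.

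**Figure D2:**
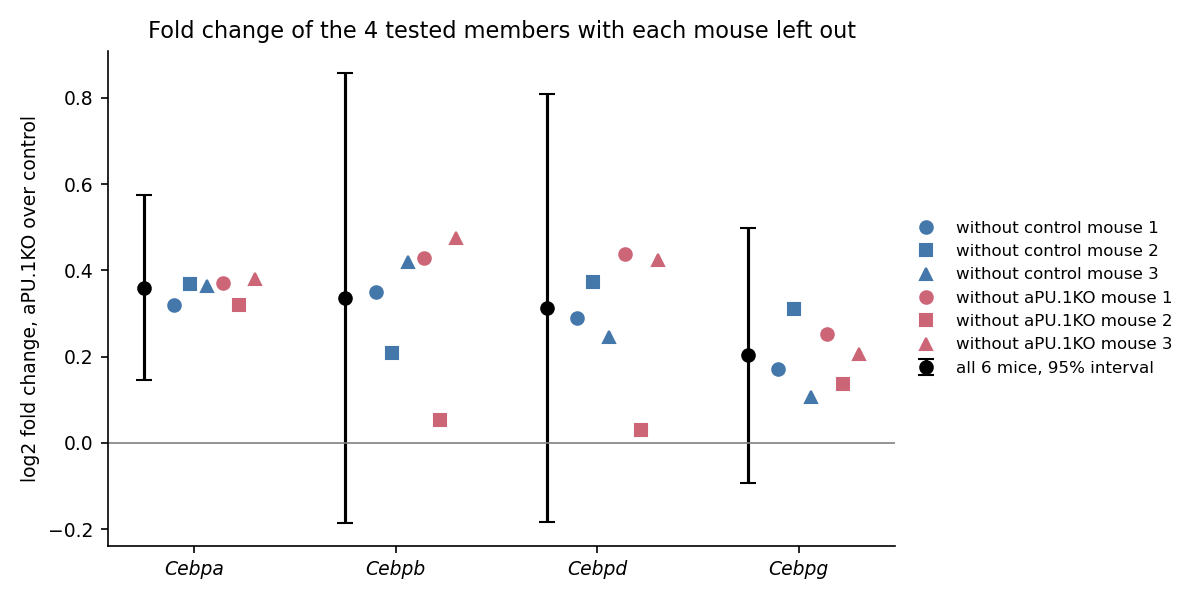
Log2 fold change (aPU.1KO over control) of the 4 members with enough counts for the test. Black points are the fit on 6 mice with its 95% interval, and colored points are the fit with 1 mouse left out. Cebpa stays between 0.32 and 0.38, whereas Cebpb and Cebpd fall to 0.05 and 0.03 without aPU.1KO mouse 2.

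Cebpg (chromosome 7, 35046422 to 35056573, minus strand) lies 62719 bp from Cebpa and encodes C/EBPγ, the dimer partner of ATF4. It was at 107, 127 and 95.5 CPM in control mice 1, 2 and 3 and at 116, 137 and 126 CPM in aPU.1KO mice 1, 2 and 3. Control mouse 2 was higher than 2 of the knockout mice, and the groups overlapped. The LFC was 0.20 ± 0.12 (SE, 95% interval -0.09 to 0.50, edgeR adjusted p = 0.345), and it was -0.18 ± 0.19 (SE) with the macrophage score as covariate. Left out in turn, single mice moved it between 0.11, without control mouse 3, and 0.31, without control mouse 2.

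Cebpe (chromosome 14, 54710360 to 54712174, minus strand), the granulocyte member, was near the limit of detection and did not pass the filter on low counts. It had 4, 2 and 2 counts in control mice 1, 2 and 3 and 3, 1 and 2 counts in aPU.1KO mice 1, 2 and 3. Summed over a group these were 8 counts in control and 6 in aPU.1KO mice, or 0.693 (exact 95% Poisson interval 0.299 to 1.37) and 0.912 (0.335 to 1.98) per 10000000 counts. The intervals cover counting error only, and a difference was not detectable at this depth. Of 14 granulocyte markers 5 were tested, 1 nominally higher and 2 nominally lower (unadjusted edgeR p under 0.05), beside 11.9% and 13.7% of all genes. The list summed to 22.9 to 40.9 CPM in control and 14.7 to 21.0 CPM in aPU.1KO mice. Retnlg was at 0 in every library. The neutrophil gene S100a8 made up most of the sum, with 23.9, 17.5 and 35.2 CPM in control and 11.7, 9.94 and 16.7 CPM in aPU.1KO mice. Elane was the nominally higher gene, at 0.551, 0.394 and 0.714 CPM in control and 1.07, 1.22 and 0.995 CPM in aPU.1KO mice.

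Of the 4 members tested, 0 were called at an adjusted p under 0.05 by edgeR, where 0.0575% of all genes tested were called higher and 0.18% lower. By an unadjusted edgeR p under 0.05, called nominal from here on, 1 of the 4 was higher, beside 11.9% of all genes. DESeq2 called 1 of the 4, Cebpa, higher at an adjusted p under 0.05, beside 3.51% of the 16684 genes to which it gave an adjusted p. Where a share of all genes is given below, it is over these 16684 genes for DESeq2 and over the 13925 tested by edgeR otherwise. The groups did not overlap in 1 of the 4, beside 16.7% of all genes with the 3 aPU.1KO mice above the 3 control mice. All 4 log2 fold changes were above 0, as were 52.0% of those of all genes, with 48.0% below 0 and a median of 0.01.

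Levels between members were compared per kilobase of merged exon. Cebpa had 259 ± 8.63 CPM per kb (SD, n = 3) in control and 332 ± 15.1 CPM per kb in aPU.1KO mice. Next came Cebpb with 37.9 ± 5.69 and 47.9 ± 14.6 CPM per kb, then Cebpg with 19.6 ± 2.88 and 22.5 ± 1.90, Cebpd with 6.26 ± 0.587 and 7.77 ± 2.37, and Cebpe with 0.0596 ± 0.0136 and 0.0785 ± 0.0433 CPM per kb. Per kilobase the order was the same in all 6 libraries, and no neighbors in it overlapped. It rests on the length correction for Cebpb and Cebpg, since by CPM alone Cebpg lay above Cebpb in all 6 libraries. On this scale Cebpa stood at percentile 99.0 to 99.3 of all genes tested, Cebpb at 90.7 to 95, Cebpg at 82.4 to 87.0 and Cebpd at 57.6 to 72.5.

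Summed over the 4 members tested, the C/EBP level was 314, 327 and 327 CPM per kb in control mice 1, 2 and 3 and 391, 449 and 392 CPM per kb in aPU.1KO mice 1, 2 and 3. Of the level summed over all 5 members, Cebpa supplied 80.2 ± 0.97% in control and 81.1 ± 2.83% in aPU.1KO mice. Cebpb supplied 11.8 ± 1.83% and 11.5 ± 2.50%, Cebpg 6.06 ± 0.873% and 5.48 ± 0.229%, and Cebpd 1.94 ± 0.181% and 1.87 ± 0.406%. For each of these 4 members the group means lay closer together than the larger of the group SDs. Without the length correction Cebpb supplied 6.55% in control and 6.45% in aPU.1KO mice, and Cebpg 12.6% and 11.5%.

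**Figure D3:**
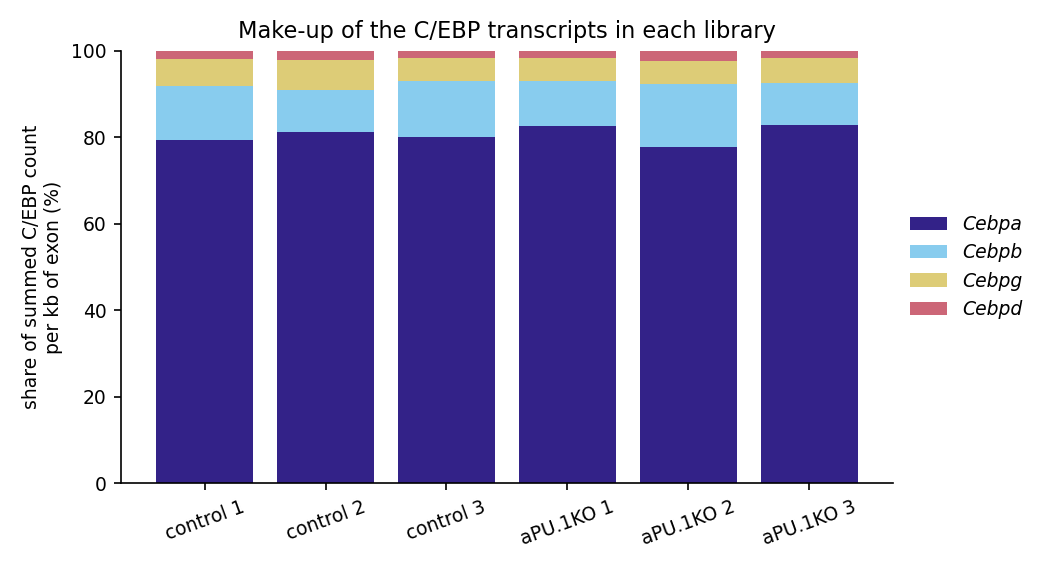
Share of each member in the summed C/EBP count per kilobase of exon (percent, axis from 0 to 100) in each of the 6 libraries. Cebpa takes between 77.8% and 82.8% in every library, the lowest in aPU.1KO mouse 2, where Cebpb takes 14.4%. Cebpe, at most 0.0314%, is too small to be seen.

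Ratios between members within a library do not depend on how libraries are scaled. For the 6 pairs of Cebpa, Cebpb, Cebpd and Cebpg the log2 ratio of counts was compared between the groups with a two-sided exact permutation test, which cannot give a p below 0.1 with 3 mice against 3. The widest difference was that of Cebpa over Cebpg, with 2.64 ± 0.20 (SD, n = 3) in control and 2.79 ± 0.07 in aPU.1KO mice, a difference of 0.15 (standard error 0.12, exact permutation p = 0.3, 1 after adjustment over 6 pairs). Cebpa over Cebpb was 3.46, 3.88 and 3.43 in control mice and 3.8, 3.25 and 3.89 in aPU.1KO mice, a difference of 0.05 (standard error 0.25, exact permutation p = 0.9). The other 4 differences lay between 0.03 and 0.10. No pair separated the groups, so that the difference in Cebpa was not shown to be unlike that of any other member.

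Tissue digestion and handling induce immediate early genes, and Cebpb and Cebpd answer many of the same signals. All 4 members tested were highest in aPU.1KO mouse 2, and all 12 immediate early genes of a list also had their highest level there, as did 28.2% of all genes tested. Fos was at 631, 727 and 543 CPM in control mice 1, 2 and 3 and at 866, 1249 and 478 CPM in aPU.1KO mice 1, 2 and 3. Ier3 was at 26.6, 28.1 and 26.9 CPM in control and 33.2, 115 and 26.0 CPM in aPU.1KO mice. The mean log2 CPM of the list was 1.13 above the control mean in aPU.1KO mouse 2, 0.46 above it in aPU.1KO mouse 1 and at -0.48 from it in aPU.1KO mouse 3, where Cebpb and Cebpd were at 0.02 and 0.07 above theirs. None of the 12 genes was called, with 0 past a nominal edgeR p, beside 11.9% of all genes higher and 13.7% lower, and 0 by DESeq2, beside 3.51% and 7.48%. Their median LFC was 0.52, or 0.09 without aPU.1KO mouse 2, 0.84 without aPU.1KO mouse 3 and -0.15 with the macrophage score as covariate. The part of these genes' signal in the values of Cebpb and Cebpd was not tested.

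**Figure D4:**
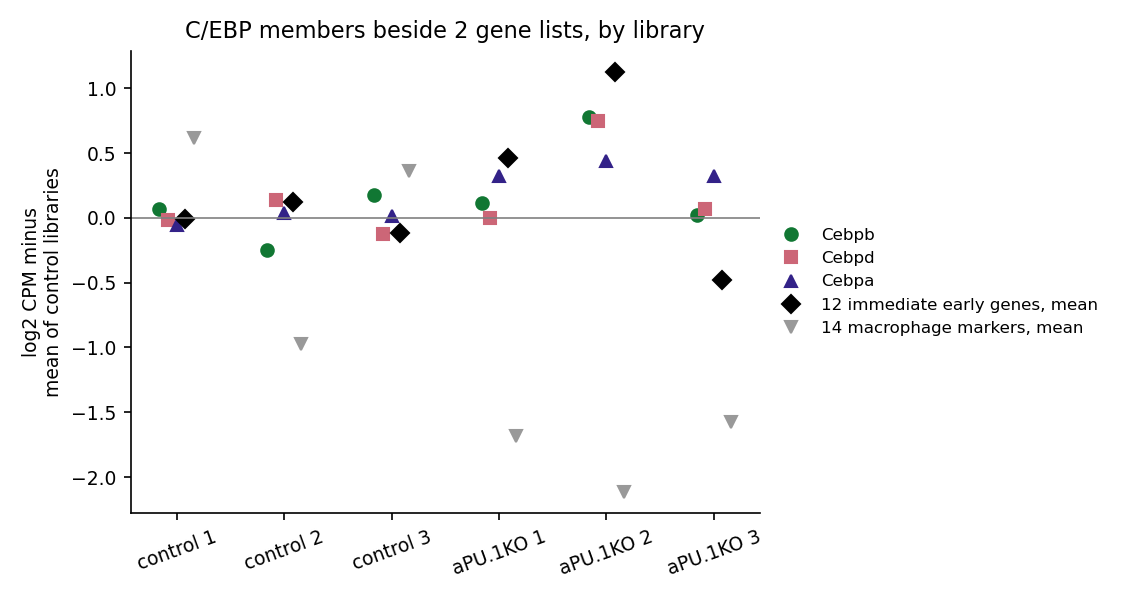
Log2 CPM of Cebpa, Cebpb and Cebpd, and mean log2 CPM of 12 immediate early genes and of 14 macrophage markers, each minus its mean over the 3 control libraries, in each of the 6 libraries. In aPU.1KO mouse 2 Cebpb and Cebpd stand at 0.78 and 0.75 and the immediate early genes at 1.13. The macrophage markers lie between -2.12 and -1.58 in the aPU.1KO libraries and at -0.98 in control mouse 2.

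The list of partners and regulators of C/EBP proteins held dimer partners such as Atf4, coactivators such as Crebbp and Tribbles genes. Of its 13 genes, all tested, 1 was nominally higher and 1 nominally lower, beside 11.9% and 13.7% of all genes, and 0 passed an adjusted p under 0.05. DESeq2 called 1, which was lower, beside 7.48% of all genes lower. The median LFC was 0.04, beside 0.01 over all genes, and -0.10 with the macrophage score as covariate. With single mice left out this median ran from 0.003 to 0.042. Id2, an inhibitor of helix-loop-helix factors, was at 7.11, 4.33 and 6.46 CPM in control and 2.13, 4.11 and 2.60 CPM in aPU.1KO mice, with an LFC of -1.02 ± 0.31 (SE, edgeR adjusted p = 0.111, DESeq2 adjusted p = 0.0254). Cop1, a ubiquitin ligase that degrades C/EBPα together with Tribbles proteins, was at 101 to 121 CPM in control and 125 to 135 CPM in aPU.1KO mice, with an LFC of 0.24 ± 0.09 (SE, edgeR adjusted p = 0.156). Ddit3, which encodes the stress-induced partner CHOP, was at 22.3, 21.5 and 25.8 CPM in control and 27.9, 28.4 and 23.0 CPM in aPU.1KO mice, and the groups overlapped. Cebpz, which bears the family's name but is no leucine zipper factor, was at 45.0, 45.0 and 41.9 CPM in control and 50.3, 38.6 and 46.8 CPM in aPU.1KO mice.

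Among 14 tested genes of adipogenic factors that act with C/EBP proteins, 3 were nominally higher and 0 nominally lower, beside 11.9% and 13.7% of all genes, and 0 passed an adjusted p under 0.05 in edgeR. The median LFC was 0.16, or 0.08 without aPU.1KO mouse 2 and -0.13 with the macrophage score as covariate. DESeq2 called 1 higher, beside 3.51% of all genes. It was Srebf1, the SREBP-1 gene, which was at 252, 288 and 255 CPM in control and 349.6, 481 and 364 CPM in aPU.1KO mice. Pparg, whose product and C/EBPα sustain each other's expression, was at 208, 251 and 202 CPM in control and 233, 317 and 288 CPM in aPU.1KO mice. These groups overlapped, and the LFC was 0.34 ± 0.14 (SE, edgeR adjusted p = 0.194). Stat5a, a cytokine-activated adipogenic factor, was higher in every aPU.1KO mouse, at 62.5 to 66.8 CPM against 53.3 to 56.4 CPM, with an LFC of 0.25 ± 0.07 (SE, edgeR adjusted p = 0.0971). Zfp423, a factor of preadipocyte commitment, was lower in every aPU.1KO mouse, at 58.5 to 64.6 CPM against 65.3 to 70.6 CPM (edgeR adjusted p = 0.239).

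Adipocyte genes known for C/EBP sites in their promoters mostly lay higher in aPU.1KO adipocytes, with 12 of the 13 tested at an LFC above 0, beside 52.0% of all genes. Of these 13, 7 were nominally higher and 1 nominally lower, beside 11.9% and 13.7% of all genes, and the median LFC was 0.43. The groups did not overlap in 9 that were higher and 1 that was lower, beside 16.7% and 15.5% of all genes. By adjusted p under 0.05, edgeR called 0 and DESeq2 called 7 higher, beside 3.51% of all genes. Of the list, 5 genes also stand among the adipocyte markers. Slc2a4, the insulin-regulated glucose transporter GLUT4, was at 151, 200.4 and 118 CPM in control and 259, 259 and 222 CPM in aPU.1KO mice, with an LFC of 0.66 ± 0.19 (SE, edgeR adjusted p = 0.104). Pck1, the enzyme of glyceroneogenesis, had an LFC of 0.89 ± 0.22 (SE, edgeR adjusted p = 0.0856). Cfd, the adipokine adipsin, was at 896, 1367 and 716 CPM in control and 2498, 5595 and 1640 CPM in aPU.1KO mice, where aPU.1KO mouse 2 was again the highest. Lep, the gene of leptin and the only list member that was lower, is named because of its values. It was at 4674, 4551 and 5029 CPM in control and 2855, 1565 and 3949 CPM in aPU.1KO mice (LFC -0.77 ± 0.32 SE, edgeR adjusted p = 0.188). With the macrophage score as covariate the median of the list was 0.12.

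Acute-phase and inflammatory genes known as C/EBPβ and C/EBPδ targets mostly lay lower in aPU.1KO adipocytes, with 13 of the 15 tested at an LFC below 0, beside 48.0% of all genes. Cebpb and Cebpd themselves did not pass the test. Of the 15, 7 were nominally lower and 1 nominally higher, beside 13.7% and 11.9% of all genes. None passed an adjusted p under 0.05 in edgeR, and DESeq2 called 5 lower, beside 7.48% of all genes. The median LFC was -0.60, or -0.36 without control mouse 3 and -0.04 with the macrophage score as covariate. Il1b, the interleukin-1β gene, was at 13.6, 3.98 and 11.9 CPM in control and 2.29, 1.76 and 2.23 CPM in aPU.1KO mice, with an LFC of -2.24 ± 0.46 (SE, edgeR adjusted p = 0.0764). The complement gene C3 was at 1435, 724.5 and 1812 CPM in control and 706, 415 and 598 CPM in aPU.1KO mice, with an LFC of -1.21 ± 0.35 (SE, edgeR adjusted p = 0.105). In both genes control mouse 2, which had the lowest macrophage markers of its group, was the nearest to the knockout mice. Not all genes of the list followed this order, and the part of the macrophage markers in their values was not tested. Orm1, an acute-phase glycoprotein gene, went the other way, at 228 to 259 CPM in control and 279 to 309 CPM in aPU.1KO mice (LFC 0.28 ± 0.09 SE, edgeR adjusted p = 0.116). Ccl2, named because of its values, was at 24.1, 25.3 and 21.6 CPM in control and 46.6, 121 and 7.96 CPM in aPU.1KO mice, so that the knockout mice lay on both sides of the control range.

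Amino acid response genes, which ATF4 drives with C/EBP partners such as C/EBPγ, had an LFC below 0 in 9 of 13 tested, beside 48.0% of all genes. Of the 13, 2 were nominally higher and 2 nominally lower, beside 11.9% and 13.7% of all genes, the median LFC was -0.08, or 0.00 without aPU.1KO mouse 2, and 0 passed an adjusted p under 0.05 in edgeR, with 1 higher and 1 lower by DESeq2, beside 3.51% and 7.48% of all genes. Chac1, which breaks down glutathione, was at 5.26, 5.38 and 6.78 CPM in control and 7.27, 15.6 and 12.8 CPM in aPU.1KO mice, an LFC of 1.04 ± 0.29 (SE, edgeR adjusted p = 0.098). The cystine transporter gene Slc7a11 was lower, at 1.01 to 1.997 CPM in control and 0.332 to 0.904 CPM in aPU.1KO mice (LFC -1.50 ± 0.46 SE, edgeR adjusted p = 0.113).

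**Figure D5:**
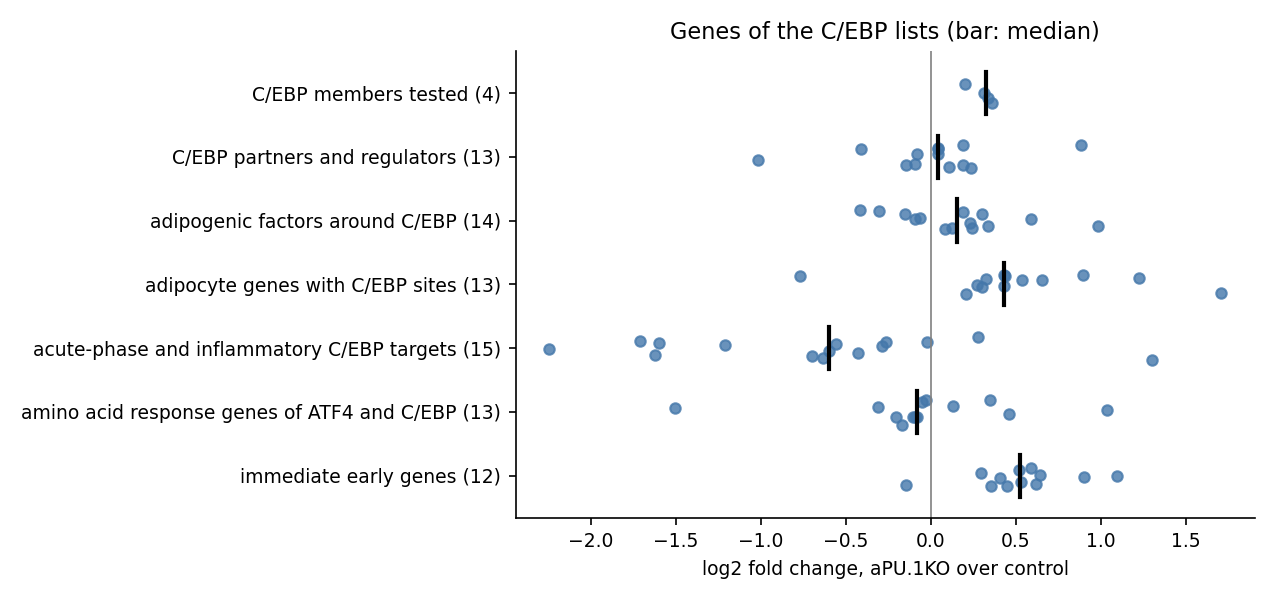
Log2 fold change (aPU.1KO over control) of the 4 members tested and of the tested genes of 6 lists around C/EBP, with the number of genes in parentheses. Each point is a gene and the bar is the median, which is 0.43 for adipocyte genes with C/EBP sites and -0.60 for acute-phase and inflammatory targets.

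Marker lists of other cell types are given beside these results. Of all genes 13.7% were nominally lower, 0.18% were lower at an adjusted p under 0.05 in edgeR and 7.48% lower by DESeq2. Of the 14 macrophage markers, 13 were nominally lower, all but Cd163, and 1, Mrc1, passed an adjusted p under 0.05 in edgeR, with 13 by DESeq2. All 11 hepatocyte markers tested were nominally lower, 4 of them past an adjusted p under 0.05 in edgeR and 11 by DESeq2. The list, of 12 genes, summed to 44.6 to 68.3 CPM in control and 19.0 to 25 CPM in aPU.1KO mice, with Alb the largest part. None was at 0 in every library, and Apoa1, Ttr, Fga, Fgb, Tat and Apoh were at 0 in some. Liver cells express Cebpa strongly, and the part of this signal in its value was not tested. Of 8 progenitor markers 5, of 8 endothelial markers 2 and of 6 mesothelial markers 0 were nominally lower, with 1 progenitor marker, Pdgfrb, past an adjusted p under 0.05 in edgeR and 5, 1 and 0 lower by DESeq2. The sums of these 3 lists were 907.5 to 1107, 495 to 732 and 4.64 to 16.8 CPM in control and 419.5 to 796, 301 to 640.5 and 6.58 to 8.54 CPM in aPU.1KO mice. Of 10 adipocyte markers, 6 were nominally higher and 1, Lep, nominally lower, beside 11.9% and 13.7% of all genes.

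The genes whose level followed a member most closely over the 6 libraries were found by Pearson's r of log2 CPM among 9611 genes with an average log2 CPM of at least 3, as a description of likeness over 6 points that share their libraries. For Cebpa these were Mrpl30, of the mitochondrial ribosome (r = 0.997), Ttc8 (r = 0.996) and Ndufb6, of respiratory complex I (r = 0.995). For Cebpb they were the proteasome gene Psmb6 (r = 0.998), the cold-induced RNA-binding gene Rbm3 (r = 0.998) and Rnf146 (r = 0.992). Gmeb2, Rev1 and Spin1 were nearest to Cebpd (r from 0.993 to 0.994), and Ppp1r9b, Chd7 and Ppp1r3e to Cebpg (r from 0.994 to 0.995). No gene was on the list of more than 1 member.

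No tested neighbor of a member other than Cebpa itself was apart between the groups, beside 16.7% of all genes apart and higher and 15.5% apart and lower. Within 100000 bp of Cebpa 4 genes of the table were annotated, and besides Cebpg they were Pepd, Slc7a10 and Lrp3, with LFCs of 0.01 ± 0.11, 0.07 ± 0.10 and 0.03 ± 0.24 (SE). Ube2v1 near Cebpb had an LFC of -0.06 ± 0.07 (SE), Prkdc and Mzt2 near Cebpd were at 0.11 ± 0.15 and 0.24 ± 0.13 (SE), and the 6 tested genes near Cebpe lay between -0.37 (Slc7a8, SE 0.35) and 0.89 (Cdh24, SE 0.73). None of these genes passed an adjusted p of 0.05 by edgeR, beside 0.237% of all genes.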

How the data were processed

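RNA of the epididymal adipocyte fraction of 3 control and 3 aPU.1KO mice was measured, 1 library each. The authors quantified reads per transcript with Salmon (option validateMappings; build GRCm38 per the labels, version and annotation not given in the sources used here) and deposited estimated counts summed to genes, as whole numbers without normalization, which were used without further rounding. Symbols and coordinates came from GENCODE M21 and matched 35031 of 35122 genes. The unmatched genes held 0.0367% of counts. Libraries within a group differed beyond counting noise, with a chi-square of at least 20.4 per degree of freedom.

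The comparison used edgeR 4.0.16 under R 4.3.3, with filterByExpr, TMM factors, glmQLFit, glmQLFTest and the Benjamini-Hochberg adjustment over 13925 genes. Each SE is the LFC divided by the square root of F. Log2 CPM used a prior count of 2, ratios added 0.5 counts, and a library with 3 counts or fewer was at the floor. DESeq2 1.42.0 was run on all genes of the table and limma-voom with limma 3.58.1. The code was tested on simulated data with 200 changed genes. Figures used matplotlib 3.10.9 in Python 3.11.15, and promoter sequences are RefSeq's (GRCm38.p6).

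The members, the 13 gene lists and the tests were chosen with earlier results of these data known. Named genes are the members, Spi1, Ddit3 and Cebpz; of each list up to 4 genes with the lowest p and up to 2 with the highest level; the 3 genes nearest each member in pattern; and neighbors within 100000 bp. Lep, Ccl2, Cd163, Retnlg, Fga, Fgb, Tat and Apoh fall outside this rule and were named after their values were seen. Replicates are mice, and the labels name no batch. Alternatives were other scaling factors, filters, tests and dispersion settings, leaving out each mouse, thinning control library 1, a macrophage covariate, other lengths and, for ratios, a prior count of 2.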

Additional observations from a re-analysis of the deposited data

How the results depend on the processing

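With 3 mice per group the intervals of the members are wide, and Cebpe is limited by its counts. The log2 fold changes of Cebpa, Cebpb, Cebpd and Cebpg stayed above 0 under all 15 alternatives without the macrophage covariate. Under that covariate they were 0.25, 0.45, -0.17 and -0.18, and the cause of the 2 reversals was not tested. DESeq2 was the one alternative that moved a member past the threshold (Cebpa, 0.35, adjusted p = 0.000754). With single mice left out Cebpa ran from 0.32 to 0.38, Cebpb from 0.05 to 0.48, Cebpd from 0.03 to 0.44 and Cebpg from 0.11 to 0.31. No fold change of Cebpe is given under any setting because its counts were at or near the floor in every library. The ratio differences changed sign when single mice were left out, except for Cebpa/Cebpg (0.06 to 0.26). They ran from -0.069 to 0.25 for Cebpa/Cebpb, -0.031 to 0.29 for Cebpa/Cebpd, -0.17 to 0.18 for Cebpb/Cebpd, -0.14 to 0.28 for Cebpb/Cebpg and -0.11 to 0.17 for Cebpd/Cebpg, in tests too small to pass a threshold. Over all genes edgeR called 33 at an adjusted p under 0.05, against 5 with at least 10 counts in every library, 146 with no filter, 1833 by DESeq2, 0 with the covariate (356 at an unadjusted p under 0.05) and 0 to 1193 with 1 mouse left out, the lowest without control mouse 1 (1718 at an unadjusted p under 0.05) and the highest without control mouse 2. Without a length correction the shares of Cebpa, Cebpb, Cebpd and Cebpg in control mice were 78.2%, 6.55%, 2.68% and 12.6%, and those of Cebpb, Cebpd and Cebpg in aPU.1KO mice 6.45%, 2.61% and 11.5%. With the longest transcript as length Cebpg had 7.13% in control and 6.46% in aPU.1KO mice. No paired analysis was possible because the labels give each mouse a number of its own that no mouse of the other group shares, and although the study used littermate controls, no label says which of these mice were littermates.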
